A study of Homo sapiens with 12 samples.

Results

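The regions described here are the places where SMC1, a core subunit of the cohesin ring, was called next to a transcript start in ΔWAPL cells and in no other genotype, with no CTCF peak. They were chosen from the deposited peak lists. The 4 SMC1 lists were merged into 38018 regions wherever intervals shared at least 1 bp. A region was kept when it held a peak of the ΔWAPL list only, when it touched no CTCF interval of any genotype, and when its ΔWAPL summit lay within 1 kb of an annotated transcript start. This left 3560 regions, 9.36% of all SMC1 regions (95% Wilson interval 9.08 to 9.66), called ΔWAPL-only promoter regions below. Each of them held exactly 1 ΔWAPL peak. Because presence, absence and distance to a start chose them, those properties are given as a description and carry no test.

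All cells were HAP1, an established human line with a nearly haploid karyotype that goes back to a leukaemia. The 4 genotypes were wild-type, ΔWAPL (labelled WaplKO_3.3), ΔSCC4 (SCC4KO) and ΔWAPL/ΔSCC4 (WaplKO_3.3/SCC4KO), the last obtained by removing SCC4 from the ΔWAPL cells. WAPL was disrupted with a CRISPR cut and an inserted Blasticidine cassette, SCC4 with a Puromycin cassette, and the edited lines are clones, with 1 line per genotype here. Chromatin immunoprecipitation followed by sequencing (ChIP-seq) was done with antibodies to SMC1 and CTCF and with IgG as control, with 1 library per genotype and antibody. No genotype comparison could therefore be tested, and a property of the clone cannot be told apart from one of the genotype. The lists hold no measure of WAPL or SCC4 themselves, so the deletions could not be checked in them.

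Cohesin is a ring of SMC1, SMC3 and a kleisin subunit that entraps DNA and forms chromatin loops. The SCC2/SCC4 complex loads it, WAPL opens the ring and releases it, and CTCF, a zinc-finger protein, marks the sites at which most cohesin is found. Promoters, the stretches around transcript starts where RNA polymerase II assembles, are often CpG islands, which are rich in G, C and the CpG dinucleotide. In many mammalian cells the loader is also found at active promoters.

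The sequence around 4 summits shows what these regions are made of. They are the strongest ΔWAPL-only promoter regions by −log10 q whose window, 75 bp on each side of the summit, held no annotated untranslated base. All are the plus strand of build GRCh37 (hg19), 5′ to 3′, and capitals mark a match to a promoter motif on either strand, the SP/KLF GC box or the NRF1 site. The SLC25A46 window (chr5:110074854-110075004) lies in an exon, with the summit 187 bp downstream of the start. The PSMD12 window (chr17:65362728-65362878) is intergenic, with the summit 82 bp upstream of this minus-strand gene. The third (chr10:73648802-73648952) lies in an exon of a long non-coding RNA, and the fourth (chr12:11653608-11653758) in a processed pseudogene.
SLC25A46: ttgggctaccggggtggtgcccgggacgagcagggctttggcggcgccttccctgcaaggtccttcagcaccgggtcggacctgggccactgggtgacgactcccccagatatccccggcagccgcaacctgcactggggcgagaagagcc
PSMD12: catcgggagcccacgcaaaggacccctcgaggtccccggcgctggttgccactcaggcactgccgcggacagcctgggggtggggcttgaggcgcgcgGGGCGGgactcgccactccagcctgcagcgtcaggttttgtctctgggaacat
ENSG00000289592: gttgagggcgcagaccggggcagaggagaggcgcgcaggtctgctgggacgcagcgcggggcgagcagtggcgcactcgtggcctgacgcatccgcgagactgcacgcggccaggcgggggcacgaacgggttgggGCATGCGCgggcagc
ENSG00000278654: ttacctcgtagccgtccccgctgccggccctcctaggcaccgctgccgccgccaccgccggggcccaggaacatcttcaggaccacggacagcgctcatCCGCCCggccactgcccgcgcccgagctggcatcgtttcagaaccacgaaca

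These windows had a G+C content of 69.5%, 69.5%, 74.8% and 70.2%. SLC25A46 encodes a mitochondrial outer-membrane protein, and its window held none of the motifs searched. PSMD12 encodes a proteasome lid subunit, and its window held 1 GC box. The long non-coding RNA window held 1 NRF1 site and the pseudogene window 1 GC box. In the ΔWAPL list their summits had 29, 33, 32 and 31 reads over local backgrounds of 2.89, 4.01, 3.91 and 3.66 reads, and the other SMC1 lists held no peak there.

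Most SMC1 promoter regions without CTCF were called in ΔWAPL cells alone. Counting every SMC1 region without CTCF that had a summit of any genotype within 1 kb of a start gave 5202 regions, of which 3560 (68.4%) were in the ΔWAPL list only. The next pattern, ΔWAPL together with ΔWAPL/ΔSCC4, had 600 regions (11.5%). Another 289 were in ΔWAPL/ΔSCC4 only, 173 in wild-type and ΔWAPL, 109 in wild-type only and 54 in ΔSCC4 only. All 4 genotypes shared 72. Over all SMC1 regions, with no condition on starts or CTCF, 24.3% were in ΔWAPL only.

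**Figure D1:**
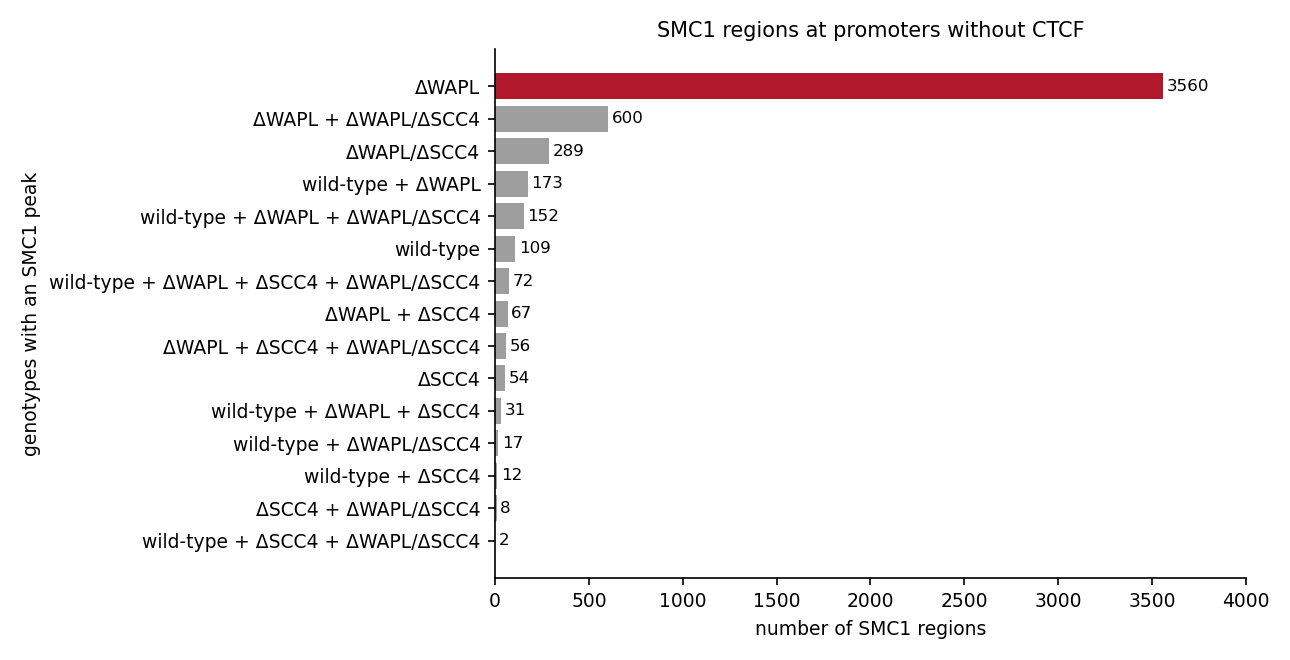
Number of SMC1 regions at promoters without CTCF (horizontal axis) for each set of genotypes with a peak (vertical axis). The ΔWAPL-only regions (red, 3560) outnumber the next set, ΔWAPL with ΔWAPL/ΔSCC4 (600), and every other set is smaller still.

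The numbers behind each condition of the rule were as follows, as a description. Of the 4192 ΔWAPL-only regions without CTCF, 84.9% had their summit within 1 kb of a start (83.8 to 86.0). Among the 5046 ΔWAPL-only regions at CTCF it was 30.2% (29.0 to 31.5). ΔWAPL regions without CTCF that another genotype shared were near a start in 1150 of 1252 cases (91.9%, 90.2 to 93.2). Seen the other way, 75.6% of the 4710 ΔWAPL regions near a start without CTCF were absent from every other SMC1 list (74.3 to 76.8), against 22.3% of the 6846 near a start with CTCF (21.3 to 23.3). Away from starts and without CTCF the share was 86.1% of 734 regions (83.4 to 88.4). Comparisons were made with other classes of the ΔWAPL list, namely the 1150 promoter regions without CTCF that ΔWAPL shared with another genotype (1179 ΔWAPL peaks), the 1524 ΔWAPL-only promoter regions at CTCF, and the 632 distal ΔWAPL-only regions without CTCF.

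The ΔWAPL-only promoter regions were weak peaks. Their deposited fold enrichment, the ratio of the summit pileup to the local background, had a median of 4.27 and quartiles of 3.81 and 4.86, over a range from 2.19 to 9.13. The median over all 33952 ΔWAPL SMC1 peaks was 6.29. In reads, the summit pileup had a median of 15 (quartiles 13 and 19) and spanned 8 to 68. This was 9.41 times the library average, over a local background of 1.67 times the average. The median −log10 q was 4.90, against 11.2 for the whole list, and 96.9% of the regions (96.3 to 97.4) ranked in the weaker 50% of the ΔWAPL list. None was in its strongest 10%. A −log10 q of at least 5 was reached by 1692 regions (47.5%), of at least 10 by 183 (5.14%) and of at least 15 by 25. The median interval was 303 bp wide, against 361 bp for all ΔWAPL peaks.

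Among the classes, the distal ΔWAPL-only regions without CTCF were the most alike in level, with a median fold enrichment of 4.26, though their intervals were narrower (242 bp). The shared promoter regions without CTCF had a median of 4.97, a −log10 q of 7.18 and a width of 430 bp, and 27.7% of them reached a −log10 q of 10 (25.3 to 30.4). The ΔWAPL-only promoter regions at CTCF had a median of 4.88. The rule selects on absence from other lists, so that a lower level than in shared regions is partly built in.

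**Figure D2:**
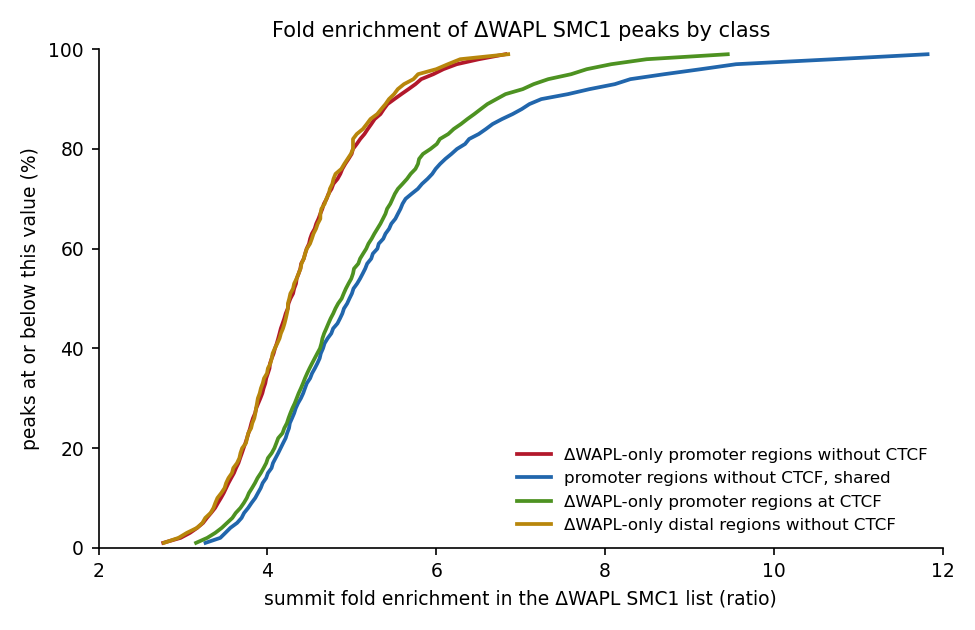
Summit fold enrichment in the ΔWAPL SMC1 list (horizontal axis, a ratio) against the percentage of peaks at or below it (vertical axis) for 4 classes. The ΔWAPL-only promoter regions without CTCF (red, median 4.27) and the distal ones (yellow, 4.26) run together, below the regions at CTCF (green, 4.88) and the shared regions (blue, 4.97).

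How low the signal of the other genotypes had to be for no call was estimated from the recovered backgrounds. At each region, the reads that would reach the lowest −log10 p of another list were set against the ΔWAPL pileup scaled to that list. Taken that way, 3491 regions (98.1%) would have been called in each of the 3 other lists at the ΔWAPL level. A median of 72.2% of that level was needed for the wild-type list, 73.3% for the ΔSCC4 list and 68.9% for the ΔWAPL/ΔSCC4 list. Only 115 regions (3.23%) would have been called in all 3 at 50% of it. The lowest −log10 p of a list was that of its weakest peak, which makes it a lenient limit. With the 5th percentile of each list in its place, a limit chosen after seeing the data, 1929 regions (54.2%) would have been called in all 3, and the median level needed rose to 94.7%, 95.2% and 95.5%. For most regions, absence from a list thus allows a sizeable fraction of the ΔWAPL signal, and it is no evidence of zero.

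The strongest ΔWAPL-only promoter region lay at CNP, the gene of a myelin-associated phosphodiesterase (chr17:40118640-40118987). Its summit had 43 reads over a background of 4.80, a fold enrichment of 7.58 and a −log10 q of 23.1, and it sat 1 bp upstream of a start. A call at this place would have needed 15, 16 and 14 reads in the wild-type, ΔSCC4 and ΔWAPL/ΔSCC4 lists, or 35.2%, 35.4% and 33.6% of the scaled ΔWAPL pileup. No such peak was listed in those 3 genotypes.

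The next was shared by MPHOSPH10, which encodes a nucleolar protein of ribosomal RNA processing, and MCEE, a mitochondrial epimerase gene (chr2:71357522-71357933). It had the highest fold enrichment of all, 9.13, with 33 reads over 2.72. At IDS, the gene of a lysosomal sulfatase (chrX:148586420-148586973), 31 reads stood over 2.70, a fold enrichment of 8.64. FAM98B (chr15:38746177-38746912) had 29 reads and 8.84. All 3 summits lay in untranslated exon sequence within 92 bp of a start.

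FAT1, which encodes a giant atypical cadherin, shows the other way to a high rank (chr4:187644425-187645327). Its summit held 56 reads, the most of the 12 strongest regions, over a background of 11.1, which was 6.98 times the library average, so that its fold enrichment was only 4.70. ROBO2, an axon-guidance receptor gene, was similar with 44 reads over 6.86 (5.72). The intervals at these genes were 903 and 1035 bp wide.

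The other 6 of the 12 strongest regions lay at ITGB1BP1 with CPSF3 (6.89), SNX1 (5.34), COA5 with UNC50 (6.76), PPCDC (6.01), ST3GAL3 (6.92) and BANF1 with EIF1AD (6.92), where the values are fold enrichments. CPSF3 encodes the endonuclease that cleaves pre-mRNA 3′ ends, SNX1 a retromer-associated sorting nexin, COA5 a cytochrome c oxidase assembly factor, and BANF1 a protein that coats chromatin as the nuclear envelope re-forms. Of the 12, 4 had starts of 2 protein-coding genes within 1 kb. Each summit was within 92 bp of a start.

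At the weak end, the region at RNF4, a SUMO-directed ubiquitin ligase gene (chr4:2470336-2470543), had 10 reads over 2.79 and a −log10 q of 1.48. The region at PRTG (chr15:56035386-56035658) had 9 reads over 2.27. At the ΔWAPL level neither would have reached the lowest −log10 p of any other list, since 111% and 112% of it were needed in wild-type. At the edge of the distance rule, the summit at HMGB3 (chrX:150152836-150153337, fold enrichment 4.58) was 982 bp from the start and that near TOX-DT 992 bp. Just beyond it lay chr7:93204930-93205137 (4.37) and chr3:32858399-32858795 (3.60), both 1006 bp away.

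The summits gathered at the start itself. The median distance to the nearest start was 98 bp (quartiles 31 and 220). Within 100 bp lay 50.8% (49.1 to 52.4), within 250 bp 78.6%, and beyond 500 bp only 6.4%. For the shared regions these shares were 58.6%, 85.6% and 3.14%, and for the ΔWAPL-only regions at CTCF 37.9%, 61.2% and 20.5%. The distance within 1 kb was limited by the rule in all 3 classes, but its distribution inside that limit was not.

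More summits lay inside the transcribed side than upstream. Downstream of the nearest start were 2144 of the 3560 (60.2%, 58.6 to 61.8). In the shared class it was 51.7% (48.8 to 54.5) and in the CTCF class 50.6% (48.1 to 53.1). Regions of 1 library are not replicates and neighbours can share a start, so the difference between classes was not tested. The nearest start depends on how many starts are annotated, so regions with starts on 1 strand only and a protein-coding gene were looked at alone. There the median summit lay 24 bp downstream in 2019 regions (58.1% downstream, 56.0 to 60.3), 6 bp downstream in 721 shared regions (52.4%, 48.8 to 56.1) and 12 bp upstream (−12 bp) in 897 regions at CTCF (46.6%, 43.4 to 49.9). In this subset the interval of the first class touched that of the second. Split into 4 equal groups by −log10 q, the 890 strongest ΔWAPL-only promoter regions had 57.8% downstream (54.5 to 61.0) and the other groups 60.7% to 61.3%. With −log10 q of at least 10 asked of every SMC1 and CTCF peak, 633 regions met the rule and the share was 49.3% (45.4 to 53.2). Only 183 of the 3560 reach that limit, so the 633 include regions that entered as weak peaks of other lists were removed. With the limit on the ΔWAPL SMC1 list alone, the share was 59.4% (57.0 to 61.7) at 5 and 56.8% (49.6 to 63.8) at 10.

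**Figure D3:**
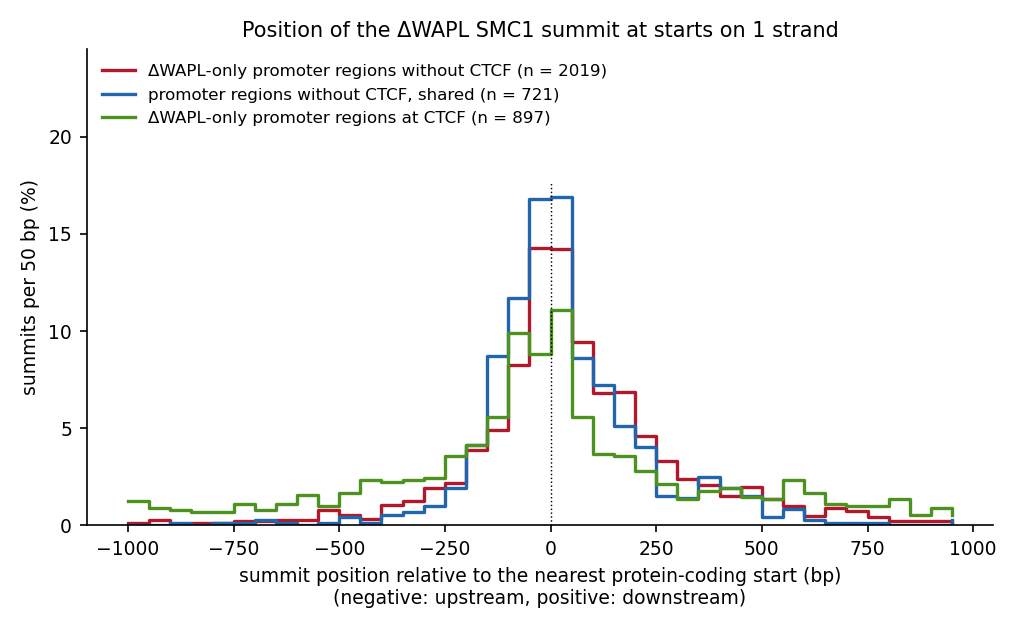
Position of the ΔWAPL SMC1 summit relative to the nearest protein-coding start (horizontal axis, bp, positive is downstream) against the percentage of summits per 50 bp (vertical axis), for regions with starts on 1 strand. The ΔWAPL-only regions without CTCF (red, n = 2019) peak in the 50 bp on each side of the start (14.3% and 14.2%) and fall off more slowly downstream than upstream.

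The promoters were mainly those of protein-coding genes. A protein-coding start lay within 1 kb of 3359 regions (94.4%, 93.5 to 95.1). Another 168 were at long non-coding RNAs, 21 at pseudogenes and 12 at other transcripts. In the shared class the protein-coding share was 94.6%, and in the CTCF class it was lower, 81.0% (79.0 to 82.9). The summit itself fell in an untranslated exon in 36.2%, an intron in 30.6%, another exon in 20.4% and between genes in 12.8%.

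Starts on both strands, in any orientation to each other, were within 1 kb of 38.6% of the summits (37 to 40.2). Of all 20098 protein-coding gene starts, 30.5% had an opposite-strand start within 1 kb (29.8 to 31.1), counted from the gene start and not from a summit. The share was 35.1% in the shared class (32.4 to 37.9) and 23.8% in the CTCF class (21.7 to 26.0). At least 2 protein-coding genes were within 1 kb of 575 regions (16.2%), against 12.6% and 10.1%. The median fold enrichment differed little, at 4.29 with starts on both strands and 4.27 with starts on 1.

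Some promoters held more than 1 such region. Another ΔWAPL-only promoter region lay within 1 kb of 454 regions (12.8%), and any other ΔWAPL SMC1 peak within 1 kb of 844 (23.7%). In the shared, CTCF and distal classes another ΔWAPL peak was that close in 18.8%, 15% and 13.6%. The 231 neighbouring pairs had a median of 504 bp between summits, and in 187 of them (81.0%, 75.4 to 85.5) a transcript start lay between both summits. The rule put every summit within 1 kb of a start, so a start between them is partly built in. No pairs of other classes were counted for reference. Merging intervals closer than 500 bp would join many such pairs. Of the genes with a region, 356 (9.93%) had at least 2. AUTS2, a developmental regulator gene with several promoters, had the most with 5, whose fold enrichments ran from 3.24 to 4.34. AUTS2 was named after the counts were seen.

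CTCF summits and SMC1 summits of other genotypes were also counted around the regions. The rule removed regions that overlapped either kind of peak, so low counts close by are partly built in. A CTCF summit of any genotype, outside the region's own interval, was within 1 kb of 504 regions (14.2%), within 5 kb of 38.1% and within 10 kb of 54.2%. For the wild-type CTCF list alone, the share within 1 kb was 10.3%, against 5.94% in the shared class and 13.9% in the distal class. An SMC1 summit of another genotype was within 1 kb of 423 (11.9%) and within 5 kb of 24.4%. By genotype, 195 regions had a wild-type SMC1 summit within 1 kb (5.48%), 124 a ΔSCC4 one (3.48%) and 349 a ΔWAPL/ΔSCC4 one (9.80%). In the distal class these shares were 5.54%, 4.75% and 10.3%, and in the CTCF class 3.67%, 2.82% and 6.36%. The shared class holds peaks of another genotype by definition. Neither a CTCF summit nor an SMC1 summit of another genotype was within 5 kb of 2063 regions (57.9%, 56.3 to 59.6). An IgG peak overlapped 3 of the regions, at ENSG00000288838 on chromosome 9 and at DUX4L17 and DUX4L19 on chromosome Y, named here because the count is small. The IgG lists held only 390 to 570 peaks, so few overlaps were possible in any class. A ΔWAPL IgG summit was within 1 kb of 0.0843% of the regions. In the shared, CTCF and distal classes it was 0%, 0.0656% and 0.633%.

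Of 20176 protein-coding genes, 3586 had a ΔWAPL-only promoter region within 1 kb of a start, which is 17.8% (17.3 to 18.3) and the background for the gene lists below. For comparison, an SMC1 peak of any kind was within 1 kb of a start in 43.7% of genes in ΔWAPL, 24.4% in ΔWAPL/ΔSCC4, 17.3% in wild-type and 11.9% in ΔSCC4 cells. The relative gap between ΔWAPL and wild-type was wider for the 13169 genes with no CTCF peak within 1 kb of a start, where the shares were 24.8%, 6.89%, 3.26% and 1.67%. Of those genes 18.7% had a ΔWAPL-only promoter region (18.1 to 19.4), and of the 7007 with CTCF near a start 16% did (15.2 to 16.9). Among the 3586 genes, 1121 (31.3%) had CTCF near a start outside the region, and 506 (14.1%) a wild-type SMC1 peak elsewhere within 1 kb of a start.

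Of 22 gene lists, 6 had an interval wholly above 17.8%, 3 wholly below and 13 held it. The 6 were splicing factors, translation initiation factors, aminoacyl-tRNA synthetases, mitochondrial ribosomal proteins, RNA polymerase II with its general factors, and respiratory complex I. Splicing factors had the highest share, 21 of 53 (39.6%, 27.6 to 53.1). SNRPF, a core spliceosomal Sm protein gene (chr12:96252508-96253032), had 24 reads over 3 and a fold enrichment of 6.26. SRSF11 had 6.28 and SRSF7, which shares its region with GEMIN6, 5.11, both genes of serine/arginine-rich splicing factors. Any ΔWAPL SMC1 peak was near a start in 73.6% of splicing genes and a wild-type one in 22.6%. In all 6 lists a ΔWAPL SMC1 peak of any kind was more frequent, at 59.5% to 73.6% of genes against 43.7% of all genes. Of all 8818 genes with such a peak, 40.7% had a ΔWAPL-only promoter region (39.6 to 41.7). In the 6 lists, in the order named, it was 21 of 39, 17 of 30, 11 of 24, 23 of 52, 16 of 33 and 12 of 22. The list shares do not allow for the frequency of ΔWAPL peaks. Whether they are particular to the ΔWAPL-only regions was not tested.

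Translation initiation factors followed with 17 of 47 (36.2%, 24.0 to 50.5). Their strongest regions were at EIF1AD (6.92), which carries the name of an initiation factor for its domain and shares the BANF1 region, EIF2A (6.74) and EIF6 (5.34). Aminoacyl-tRNA synthetases, which charge tRNAs, had 11 of 35 (31.4%, 18.6 to 48.0), led by GARS1 (5.34), NARS1 (4.87) and YARS1 (4.71). Mitochondrial ribosomal proteins had 23 of 78 (29.5%, 20.5 to 40.4). MRPS35 had the strongest (chr12:27863443-27864211), with 29 reads over 3.43 and its summit on the start base. MRPL19 followed with a fold enrichment of 7.05, and MRPL46 and MRPS11 share a region with 5.50. Cytosolic ribosomal proteins had 19 of 89 (21.3%, 14.1 to 31.0), an interval that holds the background. RPS27 (5.06), RPL37A (5.50) and RPL21 (5.27) led that list.

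In transcription, 16 of 52 genes of RNA polymerase II and its general factors had a region (30.8%, 19.9 to 44.3). CCNH, the cyclin of the TFIIH kinase (chr5:86708314-86708881), had 24 reads over 2.52 and a fold enrichment of 7.11, with its summit 1 bp upstream of the start. TAF3 (5.71) and TAF2 (6.01) encode TFIID subunits. Mediator subunits had 8 of 33 (24.2%, 12.8 to 41.0), among them MED8 (6.72), MED29 (4.70) and CDK8 (4.94). Complex I of the respiratory chain had 12 of 37 (32.4%, 19.6 to 48.5), led by NDUFC1 (4.81), NDUFB9 (5.24) and NDUFB1 (4.57), each of which shares its region with another gene.

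Further lists had intervals that held the background. Proteasome subunits had 10 of 39 (25.6%, 14.6 to 41.1), with PSMD12, whose sequence is given above, the strongest (6.78), then PSMD7 (4.92) and PSMD14 (5.30). Chaperonin and heat shock genes had 11 of 38 (28.9%, 17.0 to 44.8), with HSP90AA1 at 4.62, HSPH1 at 4.37 and HSPA5, the endoplasmic reticulum chaperone, at 4.44. DNA replication genes had 10 of 35 (28.6%, 16.3 to 45.1), with MCM8 at 5.45, GINS1 at 4.62 and RFC3 at 5.04. The Fanconi anaemia list had 5 of 15 (33.3%, 15.2 to 58.3), with BRIP1 at 5.34, FANCE at 4.21 and BRCA2, whose region is shared with ZAR1L, at 4.24. The anaphase-promoting complex had 4 of 16 (25.0%, 10.2 to 49.5), with ANAPC13 at 6.72, ANAPC1 at 5.09 and ANAPC5 at 3.88. These values are fold enrichments.

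Of cohesin's own genes, 5 of 15 subunits and regulators had a region (33.3%, 15.2 to 58.3), an interval that holds the background of 17.8%. RAD21, the kleisin subunit, had 22 reads over 2.20, a fold enrichment of 7.18 and a −log10 q of 12.4, with the summit 31 bp upstream of its start. HDAC8, the deacetylase that recycles SMC3, had 5.74. MAU2, which encodes SCC4, had 4.16 with 15 reads over 2.85, its summit at −494 bp from its start, and shares the region with SUGP1. NIPBL, which encodes SCC2, and CTCF were the other two. In this list 7 genes had a wild-type SMC1 peak near a start and 10 a ΔWAPL one.

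Other families had shares around or below the background. Replication-dependent histone genes had 12 of 64 (18.8%, 11.1 to 30). H2BC12 and H2AC12 share the strongest region (4.13), and H2BC11 shares one with H2AC11 (4.19), so that genes of this list are not independent. ZNF zinc-finger genes had 79 of 508 (15.6%, 12.7 to 19.0), with ZNF800 at 6.26, ZNF408 at 5.85 and ZNF181 at 6.11. Voltage-gated potassium channels had 8 of 40 (20.0%, 10.5 to 34.8), with KCND2 at 5.12 and KCNG3 at 3.92. HOX genes had 5 of 39 (12.8%, 5.6 to 26.7). There HOXD13 had 31 reads over 7.70 (3.68) and HOXA13 33 over 8.99 (3.40), both over backgrounds above the library average. Of 17 immediate early genes only JUND had a region (5.88%, 1.05 to 27.0), with 17 reads over 4.47 and a fold enrichment of 3.29.

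The olfactory receptor, keratin and clustered protocadherin lists had none. No olfactory receptor gene of 414 had a ΔWAPL-only promoter region, where a count of 0 allows up to 0.725% (3 counts of the total, which is below the Wilson bound of 0.919%). The same held for 0 of 55 keratin genes (up to 5.45%, Wilson bound 6.53%) and 0 of 53 clustered protocadherin genes (up to 5.66%, Wilson bound 6.76%). The protocadherins differ from the other families in their CTCF. A CTCF peak was near a start in 79.2% of them and in 1.69% of olfactory receptor and 5.45% of keratin genes, and 10 of the 53 had a ΔWAPL SMC1 peak there. Only 2 of the 414 olfactory receptor genes and 1 of the 55 keratin genes had any ΔWAPL SMC1 peak near a start. With so few peaks of any kind, a count of 0 in those lists was all but set in advance.

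**Figure D4:**
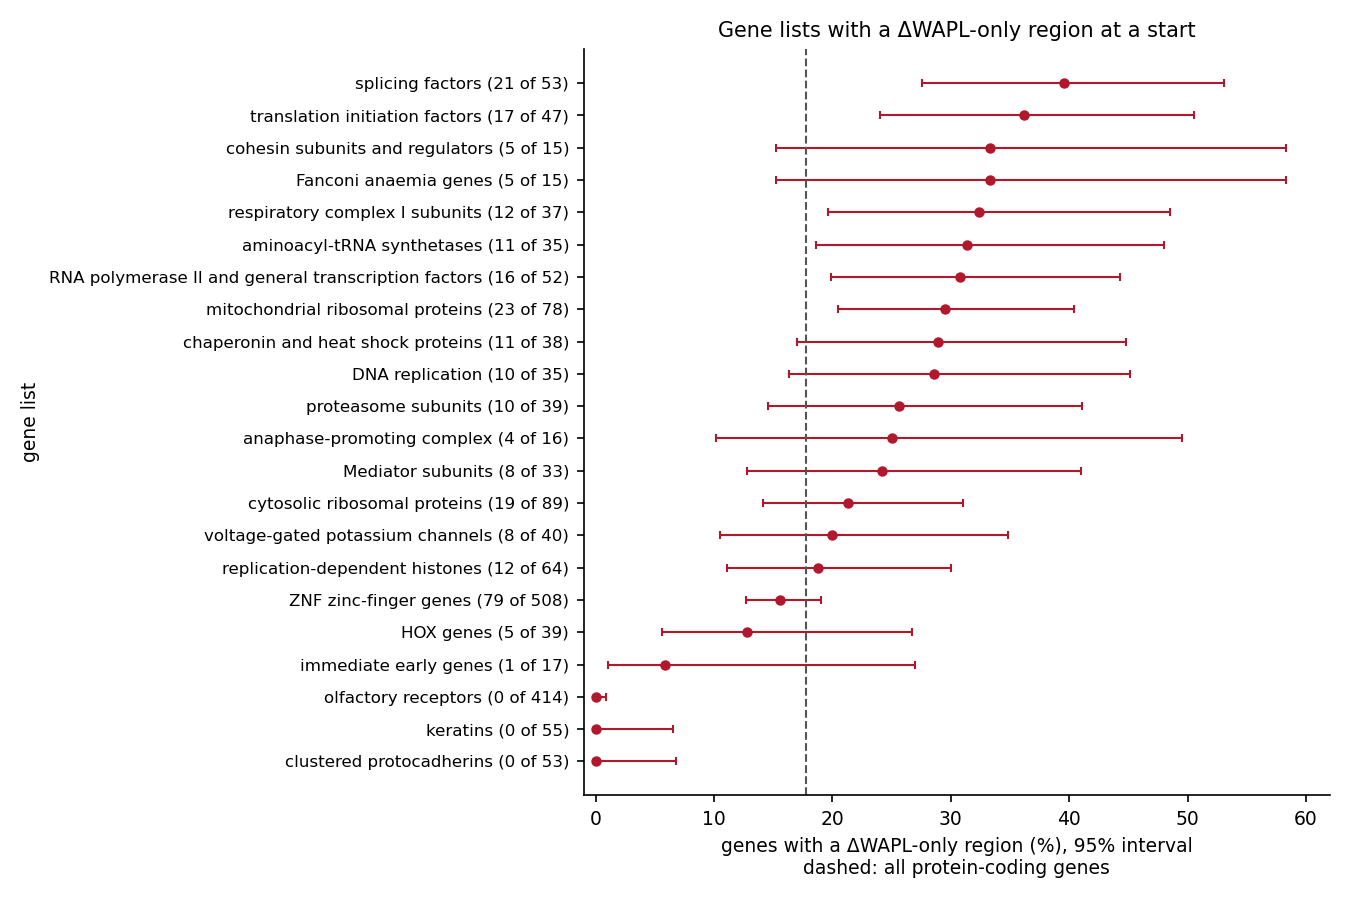
Percentage of genes with a ΔWAPL-only promoter region without CTCF (horizontal axis) in 22 gene lists (vertical axis, with counts). Points are the shares, bars their 95% Wilson intervals and the dashed line all protein-coding genes (17.8%). Splicing factors (39.6%) stand highest, and olfactory receptors, keratins and protocadherins stand at 0.

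Across chromosomes 1 to 22 and X, the share of protein-coding genes with a region ran from 7.57% on chromosome 19 (6.33 to 9.03) to 30.1% on chromosome 13 (25.4 to 35.3). On chromosome 19 the share of genes with any ΔWAPL SMC1 peak near a start was also the lowest, 26.6%, and on chromosome 13 it was 55.6%. Between 60 and 90 Mb of chromosome 15 the recovered background was raised. For the 66 regions there it was 3.21 times the library average, against 1.66 for the other 3494, and the summit level was 13.5 against 9.41 times the average. The fold enrichment there was lower, 3.74 against 4.29. SNX1, PPCDC and MRPL46 lie in this stretch, so that their read numbers and −log10 q stand beside a raised background. Its part in their rank was not tested.

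The regions were rich in G and C, as their printed examples are. In windows of 201 bp around the summit the median G+C content was 70.6% (quartiles 64.7 and 75.6). It was 72.6% in the shared class, 64.7% in the CTCF class, 56.2% at the distal regions and 63.2% at all protein-coding gene starts. Windows with at least 50% G+C and a ratio of observed to expected CpG of at least 0.6, called CpG-rich, made up 89.5% (88.4 to 90.5). The shares were 93.4% in the shared class (91.8 to 94.7), 56.6% in the CTCF class (54.1 to 59.0), 29.3% at distal regions (25.9 to 32.9) and 58.9% at all gene starts (58.3 to 59.6). Summit windows and start windows are centred differently. Centred on their starts, the genes with a region had a median of 66.7% G+C and 79.4% CpG-rich windows (78.1 to 80.7). The share rose from 88.2% (85.9 to 90.2) in the 890 weakest regions by −log10 q to 93.8% in the 890 strongest (92.0 to 95.2). The 374 windows that were not CpG-rich had their summits farther from a start, a median of 196 bp against 88 bp.

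**Figure D5:**
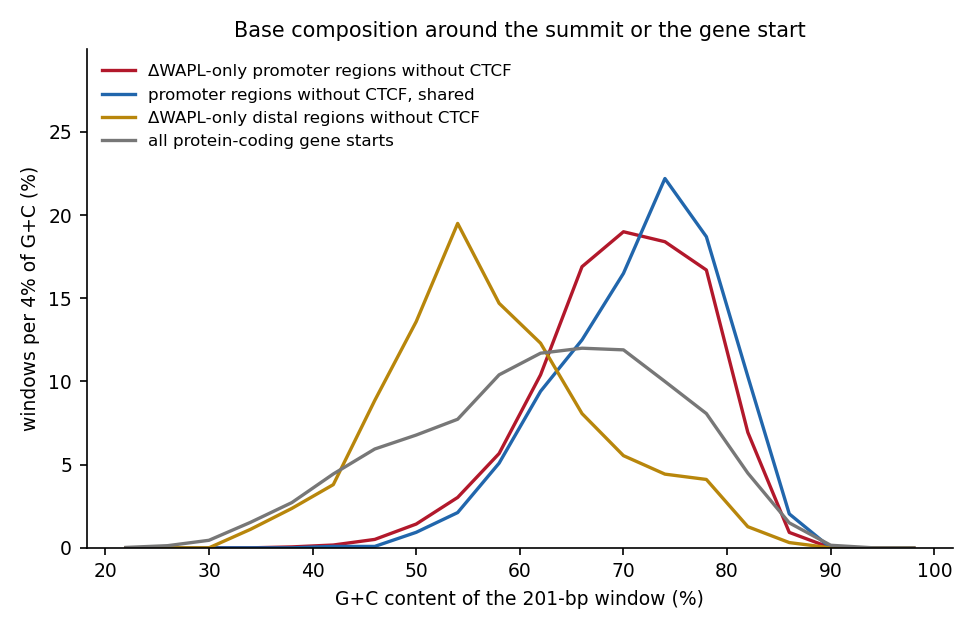
G+C content of 201-bp windows (horizontal axis, %) against the percentage of windows per 4% of G+C (vertical axis). The ΔWAPL-only promoter regions (red, median 70.6%) lie close to the shared regions (blue, 72.6%) and above all protein-coding gene starts (grey, 63.2%) and distal regions (yellow, 56.2%).

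Short promoter motifs were searched on both strands of the same windows. None of the motifs contains another. The GC box of SP and KLF factors, GGGCGG, was in 60.3% of the ΔWAPL-only promoter regions (58.6 to 61.8), 63.1% of the shared class, 40.9% of the CTCF class, 24.2% of distal regions and 46.7% of all gene starts. The CCAAT box of NFY, with the letters CCAAT, went the other way, with 10.8% (9.86 to 11.9) against 25.9% of all gene starts. The TATA box letters TATAAA were in 1.15% against 7.13% of starts, and the AP-1 letters TGANTCA in 1.88% against 3.91%. Centred on their own starts, the genes with a region had 58.4%, 26.1%, 3.90% and 2.68% for the same 4 motifs. In those windows the GC box stayed above all gene starts and the CCAAT box was level with them. The TATA and AP-1 letters stayed below. Why the shares differ between the windows was not tested.

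The ETS site CCGGAAG was in 8.62% of the regions (7.75 to 9.59), and in 16.1% of the start windows of the same genes against 10.1% of all starts. The NRF1 site GCATGCGC, shown in capitals in the long non-coding RNA window above, was in 1.26% of the regions and 2.99% of all starts, and the E-box CACGTG in 4.33% and 5.88%. Centred on their own starts, the genes with a region had 4.27% and 7.06% for these motifs, above all starts. The YY1 site AAGATGGCG was in 1.88% and 2.04%, and the CRE letters TGACGTCA in 0.702% and 1.87%, against 3.12% and 2.31% in the start windows of the genes with a region. The ZNF143 letters ACTACAATT were in 0.112% of the regions, 0.244% of all starts and 0.335% of those start windows. The CTCF core motif was in 5 windows (0.140%, 0.0600 to 0.328), those of AKR7A2P1, HERPUD1, AGPS, ENSG00000286342 and TMEM250, named here because the count is small. The CTCF core was in 5.51% of the ΔWAPL-only promoter regions at CTCF (4.47 to 6.77), 0.0848% of the shared class and 0.363% of all gene starts. The rule left out CTCF peaks, so a lower share than at CTCF is partly built in. Few regions with a CTCF peak held this motif, so its absence says little. Motif shares follow base composition, which differs between the classes, and a match is a description of the letters only.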

How the data were processed

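Peak lists of 12 HAP1 ChIP-seq libraries were used, grouped by title into 4 genotypes and 3 antibodies with 1 library each. The authors mapped single-end reads to hg19 with Bowtie2 and called peaks with MACS2 (version 2.1.1), naming IgG as control. The calling threshold is not given in the sources used here. The deposited fold enrichment is a ratio of summit pileup to local background, each with 1 read added, and the deposited −log10 values are the Poisson p-value and q-value that the caller assigned to the summit. They describe peaks within a list and were not compared between lists.

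Summit reads and backgrounds were recovered by solving both values for a whole number of reads (1 solution for at least 99.7% of peaks). Backgrounds above the floor were whole reads per 10 kb of the library itself in 100% of tested peaks, and in at most 13.0% when another fragment length was assumed. Such backgrounds come from the library's own reads and do not match a scaled IgG control. Whether IgG entered the calls could not be settled, so fold enrichment and q are read here as relative to the library's own local background. The SMC1 libraries averaged 6.79 to 8.41 reads per kb, so that a summit of 15 reads is typical and counting error large.

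Starts came from 254413 transcripts of GENCODE version 44 on GRCh37, and sequences from the GRCh37 genome. Intervals are 95% Wilson intervals for counting error, not for spread between cultures. With 1 library per group no test was made. Named regions were the 12 strongest by −log10 q away from IgG peaks, the 2 weakest, those on either side of the 1 kb limit, and up to 3 per gene list, of which 2 genes are not reported here. The regions, lists and motifs were chosen with earlier results of these data known. Another 13 settings were tried. The scripts found all planted regions and pileups in simulated data. Python 3.11.15, pandas 2.3.3, scipy 1.17.1 and pysam 0.24.0 were used.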

Additional observations from a re-analysis of the deposited data

How the results depend on the processing

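The number of ΔWAPL-only promoter regions depended most on peak strength. It was 2292 with −log10 q of at least 5 in all SMC1 and CTCF lists and 633 with at least 10. With the same limits on the ΔWAPL SMC1 list alone it was 1692 and 183. Under the other 9 settings it stayed within 1.5 times 3560. It ran from 2719, with intervals closer than 500 bp counted as overlapping, to 3812, with CTCF taken from the ΔWAPL list only. The 500 bp setting held for CTCF intervals too, so it also left out regions that close to CTCF.

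The share of ΔWAPL-only regions without CTCF that lay near a start, 84.9%, stayed within its interval in 7 of 13 settings. It was 86.4% with −log10 q of at least 5 in all lists, 86.7% with at least 10 in the ΔWAPL list alone, 82.3% with CTCF from the ΔWAPL list only, 66.8% with starts within 250 bp, 87.6% with starts within 2.5 kb and 80.1% with protein-coding starts only. The share of genes with a region ran from 1.03% to 19.0% and the median fold enrichment from 4.26 to 6.41. The share of summits downstream of the start, 60.2%, was 49.3% (45.4 to 53.2) with −log10 q of at least 10 in all lists. With that limit on the ΔWAPL SMC1 list alone it was 56.8% (49.6 to 63.8). The cause of these changes was not tested.

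No paired analysis was possible because each group held 1 library. Scaling the ΔWAPL SMC1 library to the shallowest one left 3556 regions, but this asked only for the lowest −log10 p of the list, a lenient limit, and says little about depth. Weak peaks make up most of the set, and spread between libraries is unknown.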
